A study of Homo sapiens with 32 samples.

Results

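The genes described here are 10 imprinted genes, chosen by name because several of them are known to hold sites for the transcription factor YY1 in their control regions: PEG3, PEG10, MEST, SNRPN, GNAS, MEG3, KCNQ1OT1, PLAGL1, H19 and NDN. All 10 were found in GENCODE release 44, among 38726 protein-coding and long noncoding RNA (lncRNA) genes on chromosomes 1 to 22 and X, 7 of them protein-coding and 3 lncRNA genes. They were looked up in 4 lists of peak summits, the positions of strongest signal within peaks of chromatin immunoprecipitation followed by sequencing (ChIP-seq). The ChIP-seq used HEK293T, a human embryonic kidney cell line, in 1 clone (HEK_CloneZD29) whose ZNF143 protein carries a degron, a domain through which the compound dTAGV-1 sends the protein for degradation. For SP1, NRF1 and YY1 there were 4 samples of untreated cells and 4 of cells given 50 nM dTAGV-1 for 30 minutes, and for ZNF143, recovered through its HA tag, and a mock precipitation 2 and 2. The labels name this clone throughout, so the controls carried the degron as well.

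The lists gave 1 position and 1 score per summit and no value per sample or treatment. Treated and untreated cells were therefore not compared, no replicate error could be given, and no statistical test was made. The score is the authors' own, on a −log10 scale of p or q, so that a larger score is a stronger summit, and it is compared only within a list. Beside it stands the summit's rank as a share of the list, where a small top % is strong. The YY1 list held 106578 summits on these chromosomes with a median score of 15.0, the SP1 list 126181 with 14.05, the NRF1 list 39180 with 6.16 and the ZNF143 list 16165 with 12.96. Offsets are counted from the 5′ end of the gene record, negative upstream, and a window is 5000 bp either side of it.

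An imprinted gene is expressed mainly from the copy inherited from 1 parent. The choice is set by a control region whose DNA is methylated on only that or only the other parent's copy, and many such regions lie at or near a gene's start. YY1 is a zinc finger protein that binds a short sequence around ATGG, and tandem copies of that sequence are known from the control regions of PEG3 and GNAS. SP1 and NRF1 bind GC-rich promoter sequences, ZNF143 binds promoters of many housekeeping and small RNA genes, and CTCF is the insulator protein known from the control region of H19. Reads of both parental copies enter the same summit in these lists, so no value below belongs to 1 parental copy.

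The YY1 sequence searched was AANATGGC, on both strands and with 0 mismatches. PEG3, which encodes a zinc finger protein expressed from the paternal copy, carried more of it near its start than almost any other gene. Its window held 13 copies, while the mean over all genes was 2.08 and the median 2. Of the 38726 genes, 5 had as many: PEG3, its neighbours ZIM2 and MIMT1, whose 5′ ends lie 3 and 138 bp from that of PEG3, and 2 unnamed lncRNA genes on chromosomes 1 and 2 without a YY1 summit in their windows. These genes were named after their counts were seen. All 13 copies lay downstream of the PEG3 5′ end, from offset 410 to 3946, in the same direction on the strand opposite to the gene, and 12 of them fell in introns. The median step between neighbours was 138 bp, and 4 of the 12 steps were exactly that long. The first 9 copies, which include those closest to the YY1 summit of this gene, are printed from the plus strand of hg38 with the consensus in capitals, so that their shared flanks can be seen.
Offset 410, chr19:56840300-56840329: ccccggactgcAAGATGGCggcaccaacgc
Offset 915, chr19:56839795-56839824: caccctcataaAAGATGGCacccagtgggt
Offset 1053, chr19:56839657-56839686: caccctcataaAAGATGGCacccaatgggt
Offset 1179, chr19:56839531-56839560: agcccccatcaAACATGGCgtcaaagcggg
Offset 1317, chr19:56839393-56839422: agcccccatcaAACATGGCgtccaagcggg
Offset 1455, chr19:56839255-56839284: agcccccatcaAACATGGCatctaggtggg
Offset 1593, chr19:56839117-56839146: cactttcattaAAGATGGCgcccaggtggg
Offset 1677, chr19:56839033-56839062: tgcccccatcaAAGATGGCgcccaggcggg
Offset 1816, chr19:56838894-56838923: cgccccgatcaAAGATGGCacccaggtggg

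The PEG3 gene (ENSG00000198300.14, chromosome 19, 56810077 to 56840728, minus strand) had 1 summit in the 4 lists together. It was a YY1 summit at offset 1549, inside the run of consensus copies in an intron, with a score of 4.61. That score ranked 87364 of 106578, in the top 82.0%, and so among the weakest summits of the list. The nearest consensus copy, at offset 1593, began 44 bp from the summit and did not lie wholly within 50 bp of it. The next copy, at 1455, ended 87 bp away. The reference sequence 100 bp either side of the summit, on the minus strand as the gene reads, shows these 2 copies in capitals, as the reverse complement of the consensus.
chr19:56839079-56839279, minus strand: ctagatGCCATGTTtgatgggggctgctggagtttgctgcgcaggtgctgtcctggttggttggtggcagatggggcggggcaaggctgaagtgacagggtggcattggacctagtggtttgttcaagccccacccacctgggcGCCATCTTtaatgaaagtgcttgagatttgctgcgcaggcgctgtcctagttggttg
Of all YY1 summits, 0.535% had 2 or more copies in a stretch of this length.

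The PEG3 window also held 12 copies of the SP1 sequence GGGCGGGG (both strands), a number that 0.625% of genes reached. It held 4 copies of the NRF1 sequence (both strands), whose form is seen below at NDN, a number that 0.127% of genes reached. Neither list had a summit over the gene. The nearest SP1 summits lay 64.8 kb beyond its 3′ end and 326.7 kb beyond its upstream window, the nearest NRF1 summits 214.8 and 345.7 kb, and the nearest ZNF143 summits 64.9 and 345.8 kb. How many reads could be placed in these repeated stretches was not tested.

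Over all 10 genes, YY1 had a summit within 5000 bp of the 5′ end of 4 (PEG3, PEG10, KCNQ1OT1 and PLAGL1), while 55.3% of all genes had one. SP1 had one at 3 of the 10 (57.3% of all genes), NRF1 at 1 (43.2%) and ZNF143 at 2 (28.8%). By gene type, YY1 was present at 3 of the 7 protein-coding members, against 70.1% of protein-coding genes, and at 1 of the 3 lncRNA members, against 39.7% of lncRNA genes. SP1 was at 2 of 7 and 1 of 3 (71.3% and 42.3% in the background), NRF1 at 1 of 7 and 0 of 3 (59% and 26.4%) and ZNF143 at 2 of 7 and 0 of 3 (40.1% and 16.8%). With so few genes these counts are a description, and none of them was tested. When gene bodies were added, YY1 had a summit at 5 of the 10 (63.7% of all genes), SP1 at 4 (65.3%), NRF1 at 2 (48.9%) and ZNF143 at 2 (34.2%).

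**Figure D1:**
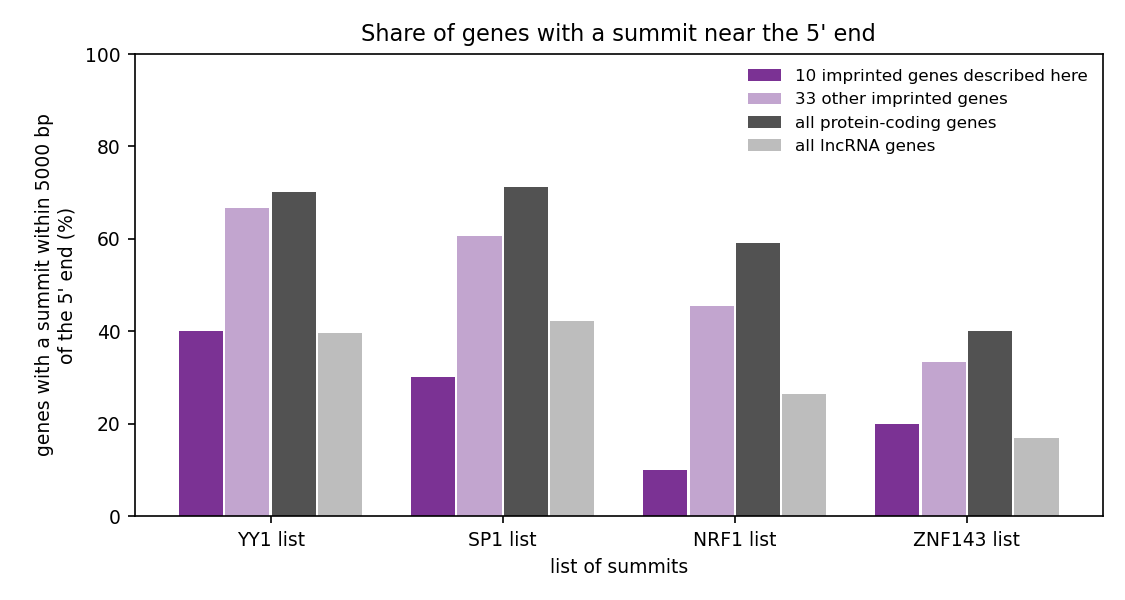
Bars show the percentage of genes with a summit within 5000 bp of the gene's 5′ end, for each of the 4 lists on the x axis and for 4 sets of genes. For YY1 the bar of the 10 genes stands for 4 genes, beside 70.1% of protein-coding and 39.7% of lncRNA genes.

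The 10 genes together held 35 YY1, 22 SP1, 11 NRF1 and 3 ZNF143 summits, and they were unevenly shared out. GNAS held 37 of these summits, PLAGL1 22, PEG10 7, KCNQ1OT1 4 and PEG3 1. These totals are not scaled by length, and gene body and window together spanned 18.4 kb at PEG10 but 129.3 kb at PLAGL1. Per 10 kb, YY1 summits numbered 2.18 at PEG10, 2.09 at GNAS, 0.851 at PLAGL1, 0.280 at PEG3 and 0.279 at KCNQ1OT1. Over all genes the median was 0.407 and the mean 1.02. MEST, SNRPN, MEG3, H19 and NDN had no summit in any list, a state shared by 30.6% of all genes, 17.6% of protein-coding and 44.4% of lncRNA genes. Of the 35 YY1 summits, 3 ranked in the top 10% of their list and 14 in its lower 50%, with scores from 2.20 to 569.8 and a median of 28.6. SP1 summits had scores from 2.65 to 939.6 with a median of 62.7, and NRF1 summits from 2.39 to 457.3 with a median of 6.05. The 3 ZNF143 summits scored between 7.63 and 14.6, none of them in the top 10% of the ZNF143 list.

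**Figure D2:**
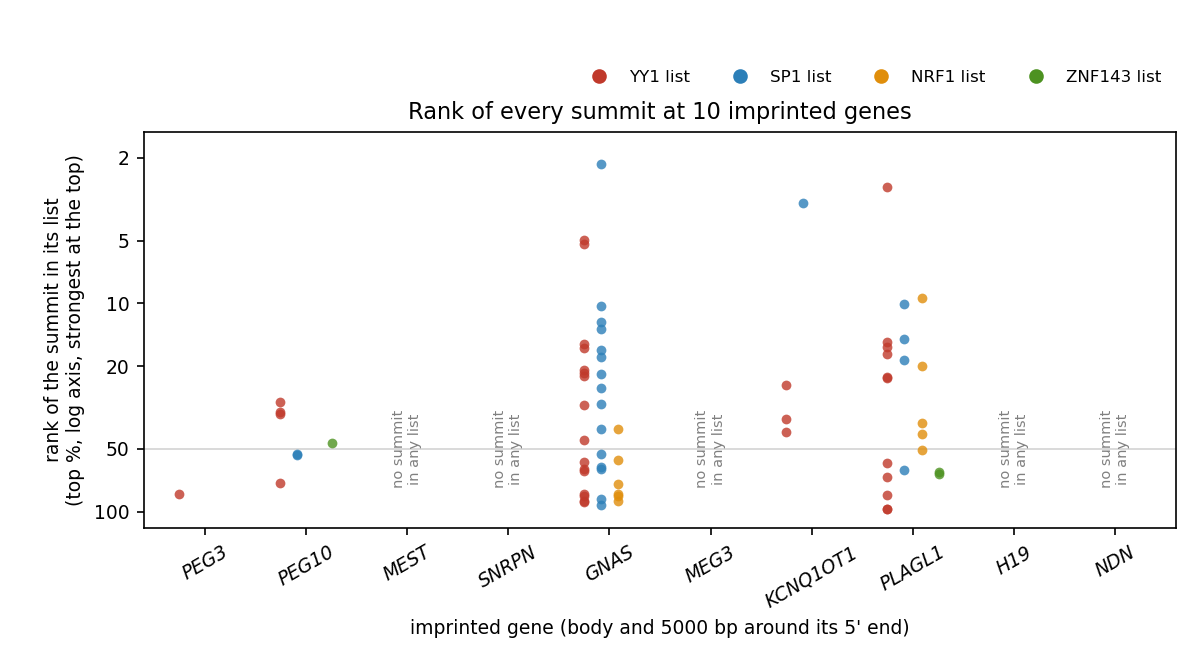
Each point is a summit, placed by gene on the x axis and by its rank in its own list on the y axis, in top % on a log scale with the strongest at the top. The single PEG3 point sits at 82.0%, the highest YY1 point is at PLAGL1 (2.76%), the highest SP1 points are at GNAS (2.14%) and KCNQ1OT1 (3.30%), and 5 genes have none.

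PEG10, a retrotransposon-derived gene known for its part in placental development, lies on chromosome 7 (ENSG00000242265.6, 94656325 to 94669695, plus strand). Its 5′ end is shared head to head with SGCE, another imprinted gene, so its summits cannot be assigned to either alone. Upstream of it lay 4 YY1 summits, with scores of 6.62 at −1638 bp, 34.9 at −1039, 28.6 at −625 and 29.3 at −360. All 4 belonged to 1 peak, so they are neighbouring maxima and not separate calls. The strongest ranked in the top 29.9% of the list, and the 3 nearest to the start were close to one another in score. SP1 had 2 summits there, also in 1 peak, at −1198 bp (score 12.4) and −556 bp (12.5, top 52.8%). A ZNF143 summit with a score of 14.6, in the top 47.0% of its list, lay at −11 bp, the nearest of all to the annotated start. The NRF1 list had no summit closer than 136.8 kb beyond the window. The strongest YY1 summit had no YY1 consensus within 50 bp, as its sequence shows, and neither did the other 3.
PEG10, chr7:94655236-94655336, plus strand: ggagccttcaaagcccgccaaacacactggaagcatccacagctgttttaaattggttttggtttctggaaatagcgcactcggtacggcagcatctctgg

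KCNQ1OT1 is a long RNA read from within an intron of KCNQ1 on the opposite strand and is known to silence neighbouring genes on the paternal copy (ENSG00000269821.2, chromosome 11, 2597308 to 2700003, minus strand). All 4 of its summits lay within 1000 bp of its 5′ end and none in the rest of its 102.7 kb. SP1 had 1 summit at −121 bp with a score of 668.3, rank 4162 of 126181 and in the top 3.30% of its list. YY1 had 3 summits on both sides of it, with a score of 26.1 at −329 bp, 45.98 at 103 bp and 20.7 at 792 bp. They ranked in the top 35.9%, 24.7% and 41.5% and belonged to 1 peak. The YY1 summit nearest to that of SP1 lay 208 bp from it, so the lists put YY1 and SP1 at the same start but not at the same position. NRF1 and ZNF143 had no summit over the gene. Neither the YY1 sequence nor the SP1 sequence occurred within 50 bp of these summits, and the KCNQ1OT1 window held 1 YY1 copy and no SP1 copy.

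PLAGL1 encodes a zinc finger protein that restrains cell growth, and it is read from several starts (ENSG00000118495.21, chromosome 6, 143940300 to 144064599, minus strand). Annotated transcripts began in 6 clusters, where ends up to 500 bp apart were joined. The gene's 5′ end belonged to the first, and the second, between offsets 55776 and 56481, had the most transcripts (12) and is shared with HYMAI, a noncoding RNA gene of the same imprinted region. PLAGL1 was the only one of the 10 genes with summits in all 4 lists. It spans 124.3 kb, and the share of all genes with summits in all 4 is not given here. In each list its highest score was at this second cluster. The YY1 summit at offset 56401 scored 569.8, rank 2946 of 106578 and in the top 2.76%. It was the strongest YY1 summit of all 10 genes.

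SP1 at PLAGL1 reached 229.1 (top 10.02%) at offset 56218 and NRF1 457.3 (top 9.43%) at 56222, so that these summits lay 4 bp apart and the ZNF143 summit, at 56182 with a score of 7.86 (top 64.3%), lay 36 bp from that of SP1. The YY1 summit stood apart from them, 183 bp from the SP1 summit. At the gene's own 5′ end the same lists had lower scores, with YY1 at 489 bp (80.9, top 16.3%), NRF1 at 499 bp (36.8, top 19.98%), SP1 at 678 bp (133.3, top 14.9%) and ZNF143 at 732 bp (7.63, top 66.1%). YY1 and NRF1 were 10 bp apart there. Further YY1 summits lay at 57389, 57625 and 57877 bp (scores of 87.4, 74.1 and 52.2), in the same peak as that at 56401 bp. Others lay at 50971 bp (51.8, with an SP1 summit 14 bp away) and, with scores of at most 10.9, at 5 more places.

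**Figure D3:**
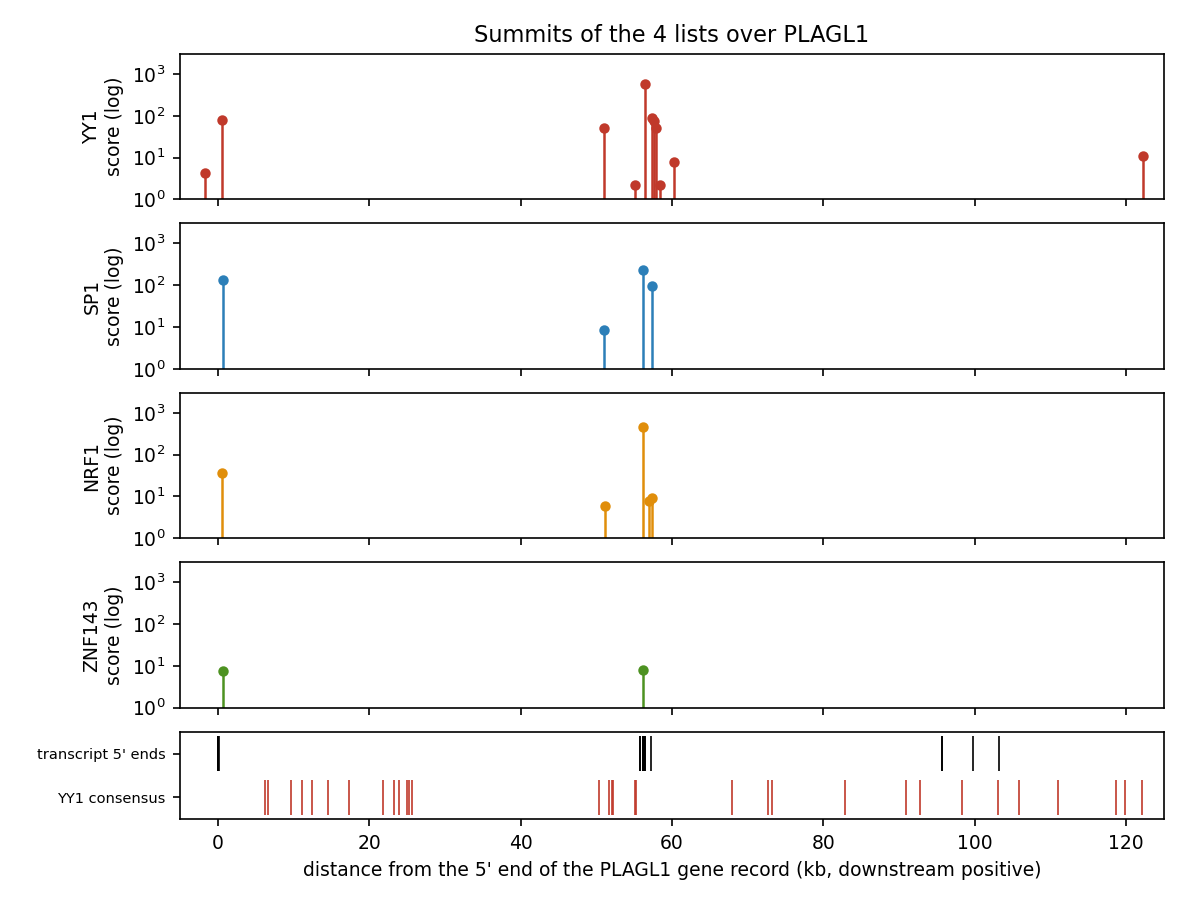
Vertical lines show each list's summits over PLAGL1 by distance from the gene's 5′ end in kb, with the score on a log axis, above ticks for transcript 5′ ends and YY1 consensus copies. The highest summit of every list stands between offsets 56182 and 56401, at the second cluster of transcript starts, while the consensus copies are spread over the gene.

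The strongest YY1 summit of PLAGL1 had no YY1 consensus within 50 bp. Of the 32 copies over the gene and its window, 1 lay at a YY1 summit, the one at 55160 bp, whose score of 2.22 put it in the top 96.9%. The summit at 489 bp held a sequence of another kind, a CTCF-type consensus of the form known from the H19 control region. Of all gene windows, 0.331% had a copy of it on either strand. It is printed in capitals, as the gene reads.
PLAGL1, chr6:144064060-144064160, minus strand: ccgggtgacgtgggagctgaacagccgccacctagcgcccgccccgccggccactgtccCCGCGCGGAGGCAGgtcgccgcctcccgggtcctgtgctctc

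GNAS encodes the stimulatory G protein alpha subunit and, from other starts, products read from 1 parental copy only (ENSG00000087460.29, chromosome 20, 58839718 to 58911192, plus strand). Its 77 annotated transcripts began in 15 clusters. The first, at the gene's 5′ end, is known for the maternally expressed product NESP55, those from offset 12996 for the paternally expressed XL alpha s, those from 48695 for exon A/B and those from 51584 for the G protein subunit itself. No list had a summit within 5000 bp of the gene's 5′ end, and no summit lay within 1000 bp of the first 5 clusters. GNAS therefore counts as without a summit by the window, and as the gene with the most summits by its body.

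Between 48 and 55 kb, over the starts of exon A/B and of the G protein subunit, lay 9 of the 16 YY1 and 10 of the 15 SP1 summits of GNAS. The 9 YY1 summits belonged to 1 peak, so they are neighbouring maxima and not separate calls. The highest were 296.3 at offset 51007 (top 4.98%), at −577 bp from the first start of the subunit's cluster, and 285.9 at 53315 (top 5.15%). An NRF1 summit lay 37 and 32 bp from these, with scores of only 5.15 and 3.44, and an SP1 summit lay 19 bp from the second. At exon A/B the YY1 summit at 49204 scored 84.4 (top 15.7%) and the SP1 summit at 49226 scored 175.9 (top 12.3%), 22 bp apart. SP1 also reached 221.2 at 51249 and 157.4 at 51629.

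Outside that stretch, a YY1 summit at 11132 bp scored 80.0 (top 16.4%) and an SP1 summit at 11233 bp scored 111.2 (top 16.7%). They lay at 53 and −48 bp from the 5′ end of GNAS-AS1, the antisense RNA gene of the locus, and at −1864 and −1763 bp from the first XL alpha s start. Near the 3′ end of GNAS, an SP1 summit at 68260 bp scored 939.6, rank 2704 and in the top 2.14%, the highest of the 22 SP1 summits. It fell 3 bp from an annotated transcript start at 68263, with a YY1 summit of 52.9 (top 22.4%) 113 bp away and 4 NRF1 summits within 1000 bp, scoring 2.39 to 8.33. ZNF143 had no summit over GNAS, and its nearest lay 131.3 and 178.9 kb outside.

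**Figure D4:**
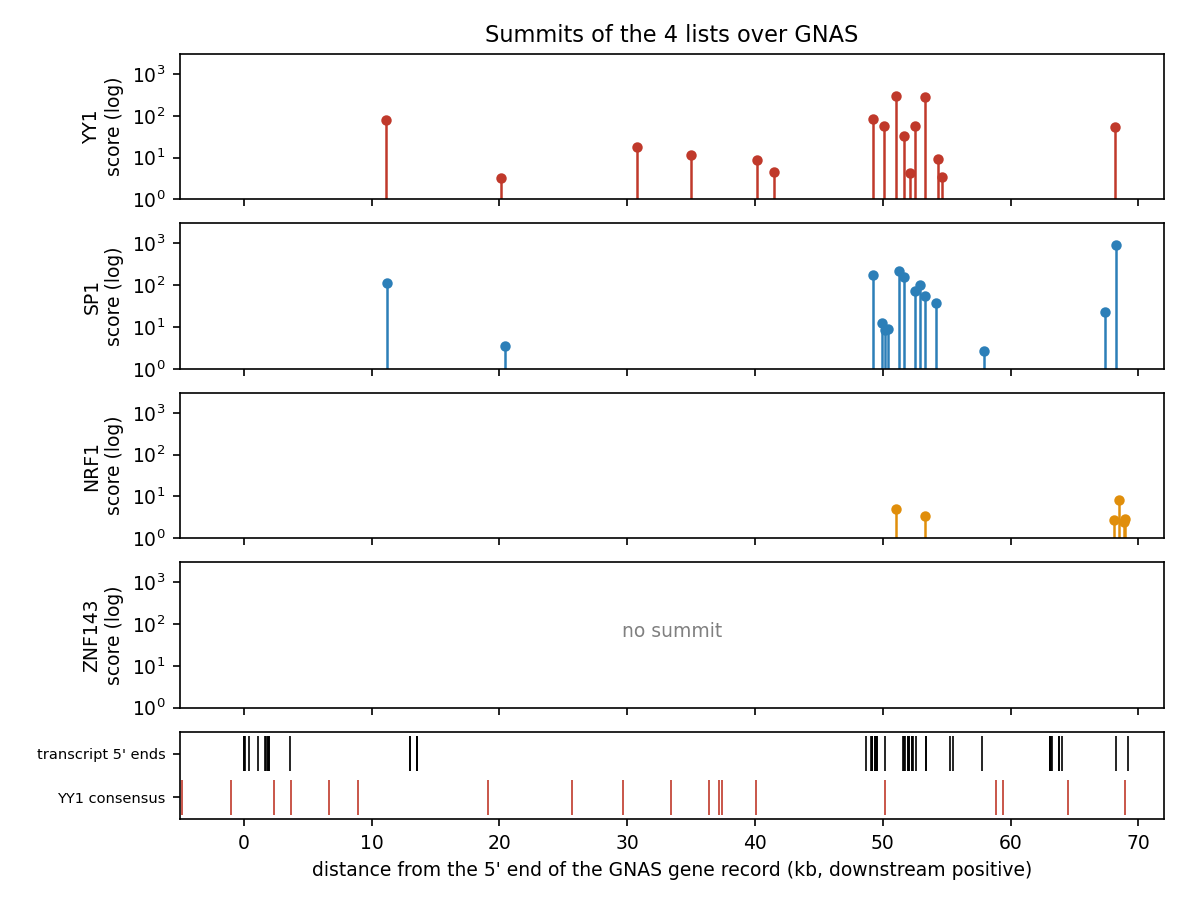
Vertical lines show each list's summits over GNAS by distance from the gene's 5′ end in kb, with the score on a log axis, above ticks for transcript 5′ ends and YY1 consensus copies. YY1 and SP1 summits crowd between 48 and 55 kb, the first 5 clusters of starts have none within 1000 bp, and the tallest SP1 line stands at 68260 bp.

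Over GNAS and its window there were 19 copies of the YY1 consensus, of which 1 lay at a YY1 summit, that at 40148 bp with a score of 8.94 (top 64.2%). Neither of the 2 strongest YY1 summits had an exact copy within 50 bp, and the sequences around both are shown. That around the summit at 53315 bp holds taaatggc and gaaatggc, each 1 base away from AANATGGC. With 1 mismatch allowed, 35.4% of all YY1 summits had the consensus within 50 bp. The first stretch is not centred on its summit, since it stops where an annotated untranslated stretch begins.
YY1 summit at 51007 bp, chr20:58890635-58890735, plus strand: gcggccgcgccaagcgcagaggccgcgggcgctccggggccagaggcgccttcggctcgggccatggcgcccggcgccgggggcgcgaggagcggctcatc
YY1 summit at 53315 bp, chr20:58892983-58893083, plus strand: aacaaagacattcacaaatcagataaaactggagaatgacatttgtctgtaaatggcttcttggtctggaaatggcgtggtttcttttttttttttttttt

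Consensus copies and summits were then set against each other over all 10 genes. Of 160 YY1 copies over their bodies and windows, 2 lay wholly within 50 bp of a YY1 summit, both in gene bodies. Within the windows alone it was 0 of 30 copies, 13 of them at PEG3, while 4.54% of all 64574 copies within 5000 bp of a gene's 5′ end did so. Read from the summits, 2 of the 35 YY1 summits had the consensus within 50 bp, while 7.71% of all YY1 summits did (Wilson 95% interval 7.56 to 7.88, counting error only). The interval treats summits as independent, but the 106578 summits fall in 64684 peaks, so it is too narrow. Among the 4 genes with a YY1 summit in the window, the strongest one had the consensus within 50 bp at none. With 1 mismatch allowed it was still none, while the share over all YY1 summits rose to 35.4%.

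**Figure D5:**
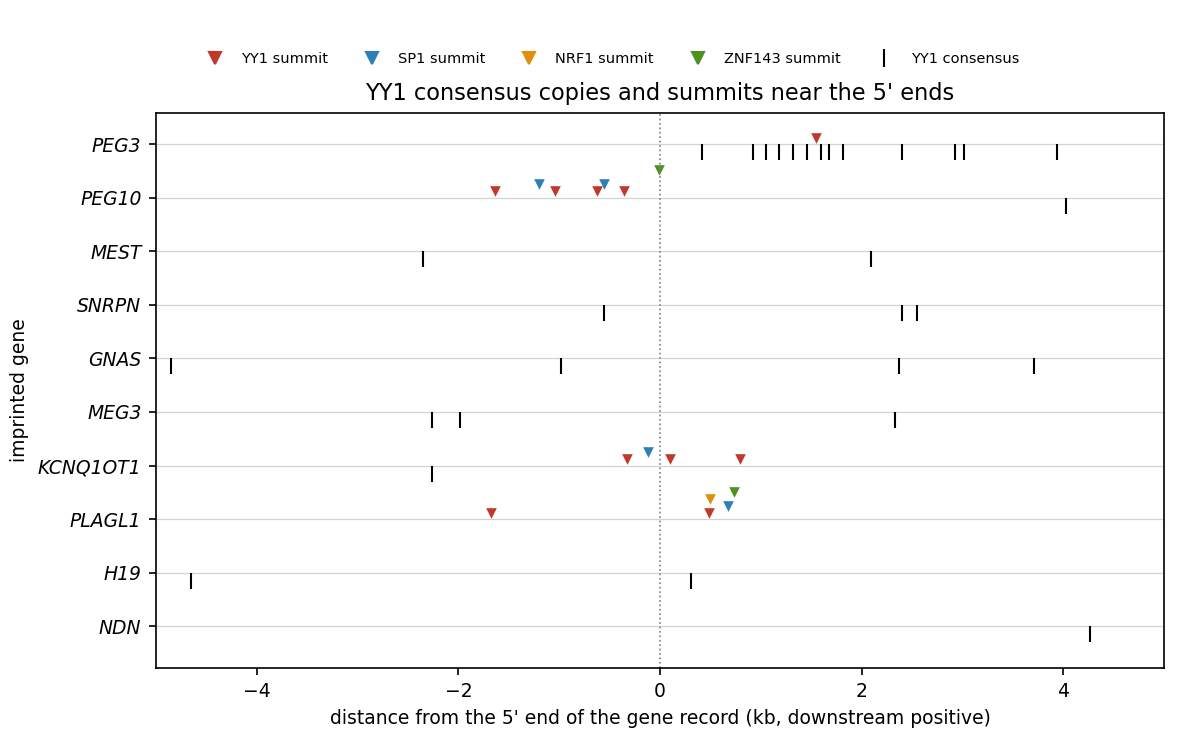
Black ticks are YY1 consensus copies and triangles are summits, by distance from each gene's 5′ end in kb. The row of PEG3 has 13 ticks and 1 triangle, the rows of PEG10 and KCNQ1OT1 have triangles away from their single tick, the row of PLAGL1 has triangles and no tick, and the other 6 rows have no triangle.

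The places without a summit were checked for peaks left out of the lists. Each list numbers its peaks, and across all 27 combinations of gene and list without a summit, PEG3, PEG10, GNAS and KCNQ1OT1 included, the peaks on either side carried consecutive numbers. No numbered peak was therefore missing at any of them. Peaks removed before the numbering would leave no gap, and how often numbers are skipped elsewhere in the lists is not given here. The distance to the next summit differed widely.

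SNRPN, which encodes a protein of small nuclear ribonucleoproteins and is part of the Prader-Willi and Angelman region (ENSG00000128739.23, chromosome 15, 24823637 to 24978723, plus strand), lay far from summits in every list. The YY1 summits on either side of it were 1560.7 kb apart, the SP1 summits 1557.6 kb, the ZNF143 summits 1569.5 kb and the NRF1 summits 1873 kb. Its 39 YY1 consensus copies had no summit, nor had the cluster of 6 transcript starts between offsets 131298 and 131368. The known control region of the locus lies at those inner starts, inside the gene body and outside the 5000 bp window of the gene record's 5′ end.

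NDN, a single-exon gene of the same region that encodes necdin (ENSG00000182636.8, 23685400 to 23687305, minus strand), shared that NRF1 gap. A YY1 summit of 46.7 lay 21.8 kb beyond its upstream window, and one of 1468 lay 116.6 kb beyond the other side. The 130 bp before its start held 2 copies of the SP1 sequence and 1 of the NRF1 sequence. Of such stretches of all genes, 14.1% had 1 or more copies of the SP1 sequence and 3.12% of the NRF1 sequence. The 3 copies at NDN are shown in capitals as the gene reads, those of SP1 as the reverse complement, because neither list had a summit there.
NDN, chr15:23687306-23687435, minus strand: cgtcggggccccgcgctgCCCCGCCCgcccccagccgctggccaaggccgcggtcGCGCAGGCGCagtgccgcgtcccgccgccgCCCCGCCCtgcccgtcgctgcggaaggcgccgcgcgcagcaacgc

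MEST, a gene of the alpha/beta hydrolase family expressed from the paternal copy (ENSG00000106484.16, chromosome 7, 130486171 to 130506465, plus strand), had its nearest summits 39.9 to 40.3 kb upstream of the window in all 4 lists. Scores there were 4868 for NRF1, 1277 for SP1, 76.5 for YY1 and 4.35 for ZNF143. On the other side the nearest was an SP1 summit at 70.5 kb. None of its 7 clusters of transcript starts had a summit within 1000 bp.

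MEG3, a maternally expressed lncRNA gene (ENSG00000214548.18, chromosome 14, 100779410 to 100861031, plus strand), had a YY1 summit of 7.94 at 12.2 kb beyond its upstream window, and the next on the other side was 405.6 kb away. Its second cluster, with 27 transcripts from offset 46688, had no summit within 1000 bp in any list. The distance from the window to the nearest ZNF143 summit was 398 kb.

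H19, a maternally expressed lncRNA gene (ENSG00000130600.22, chromosome 11, 1995166 to 2004552, minus strand), had 2 YY1 copies and 5 copies of the CTCF-type consensus in its window. No other of the 38726 genes had as many of the latter. The sequence searched has the form known from the H19 control region, so that rank follows from its choice. The 5 CTCF-type copies lay in introns of the annotated record, from offset 1520 to 4584, all in the direction of the gene. The H19 cluster with the most transcripts (15) began further downstream, between offsets 6677 and 7366 and beyond the 5000 bp window. All 5 copies lay upstream of that cluster. Such repeats are known from its control region, and they are printed as the gene reads with the consensus in capitals.
Offset 1520, chr11:2003011-2003040: agaagtggCCGCGCGGCGGCAGtgcaggct
Offset 1925, chr11:2002606-2002635: ggaagtggCCGCGCGGCGGCAGtgcaggct
Offset 2326, chr11:2002205-2002234: aaaagtggCCGCGCGGCGGCAGtgcaggct
Offset 3759, chr11:2000772-2000801: ggaagtggCCGCGTGGCGGCAGtgcaggct
Offset 4571, chr11:1999960-1999989: ggaagtggCCGCGCGGCGGCAGtgcaggct
No YY1 summit lay closer than 35210 bp to any of these copies. The nearest summit of any list was SP1, 1488 bp past the 3′ end with a score of 58.8 (top 24.2%), just outside the rule for members, and it entered when all transcript 5′ ends were used.

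Across all 57 clusters of transcript 5′ ends of the 10 genes, YY1 had a summit within 1000 bp of 11 (28.2% of clusters of all genes), SP1 of 12 (29.7%), NRF1 of 8 (21.3%) and ZNF143 of 3 (13.2%). Clusters of 1 gene share summits and are not independent.

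YY1 summits of the 10 genes had an SP1 summit within 100 bp in 9 of 35 cases (25.7%), while 47.9% of all YY1 summits did. For NRF1 it was 5 of 35 (14.3%) against 11.2%, all 5 at GNAS and PLAGL1. For ZNF143 it was 0 of 35, against 7.73%. If the summits were independent, that count would allow a share of up to 8.57%, but the 35 fall in 17 peaks, with 9 in a single peak of GNAS and 6 in a single peak of PLAGL1, so this limit is too low.

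A list of 33 other imprinted genes, fixed by name, was set beside the members. Of those 33 genes, 22 had a YY1 summit within 5000 bp of the 5′ end, beside 55.3% of all genes. SP1 had one at 20 (57.3%), NRF1 at 15 (43.2%) and ZNF143 at 11 (28.8%). Among protein-coding genes these shares were 70.1%, 71.3%, 59% and 40.1%. All 4 lists had a summit at 10 of the 33, for which no share over all genes is given here. Those with a YY1 summit included SGCE, ZIM2, HYMAI and GNAS-AS1, which share it with a gene described above. Leaving these out, 18 of 29 had one. The highest YY1 ranks among the others were at MKRN3 (score 1468, top 1.21%, at −13 bp), a gene neighbouring NDN, at ZNF331 (785.8, top 2.12%, at 1383 bp) and at UBE3A (657.7, top 2.46%, at −217 bp), the ubiquitin ligase gene of the Angelman region. At ZNF331 the ZNF143 summit scored 9849 and ranked in the top 2.63% of its list. All 3 ranked above every YY1 summit of the 10 genes.

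The genes with the pattern most like that of PEG3, by distance over the 4 percentiles of their best scores in the window, were ADCYAP1R1, ECEL1 and an unnamed lncRNA gene, all at a distance of 0. This likeness says little, because 20 genes were tied at 0 through the same low YY1 score and 959 genes had a YY1 summit and no other in their window.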

How the data were processed

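Peak summits were deposited by the authors as 1 list per antibody (YY1, SP1, NRF1 and ZNF143), from 32 ChIP-seq samples in 10 groups taken from the titles. Column 5 of the deposited lists was taken, from its layout and its lowest value just above 2.00, as a −log10 p-value or −log10 q-value; which of these is not given in the sources used here. Per the submitters' processing notes, cutadapt, Bowtie2, SAMtools 1.16.1, MACS3 and bedtools were used with hg38, in no stated role. The labels tie untreated and treated samples of SP1, and likewise of ZNF143, to a single list; the NRF1 and YY1 lists were matched by antibody name. A mock list was not used here, and read depth per sample is unknown, so list length and scores are not comparable between lists.

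Summits on chromosomes 1 to 22 and X were ranked by score and placed on GENCODE 44 gene records with Python 3.11.15, numpy 2.4.6 and pandas 2.3.3. No summit lay past the end of its hg38 chromosome. Consensus searches used exact matches on both strands of hg38; forms for NRF1, ZNF143 and CTCF are given by name. The search and the offsets were tested on simulated data. The genes, lists and consensus sequences were chosen with earlier results of these data known, so no test was made. Named were all 10 genes, the 3 other imprinted genes with the best YY1 rank, and the 3 genes most like PEG3. Alternatives changed the window (1000 bp), the 5′ ends (all transcripts), the lists (top 50% by score, or the 16165 top-scoring summits of each), the summits (1 per peak), the contigs ranked and the consensus.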

Additional observations from a re-analysis of the deposited data

How the results depend on the processing

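No paired analysis was possible because the lists hold no value per sample, and for the same reason no replicate could be left out. Using all transcript 5′ ends raised the genes with a summit in the window from 3 to 5 for SP1 and from 1 to 2 for NRF1, by adding GNAS and, for SP1, H19. The top 50% of each list by score lowered the summits over the genes to 21 for YY1, 14 for SP1, 5 for NRF1 and 1 for ZNF143, and left 1 gene with a ZNF143 summit in the window. Keeping the 16165 top-scoring summits of each list left 3 YY1, 5 SP1 and 4 NRF1 summits, with 0 genes for YY1 and 1 for SP1 in the window. Shares over all genes under these altered settings are not given here, so these counts show only how the members' numbers move. Counting 1 summit per peak gave 17 for YY1, 11 for SP1 and 6 for NRF1. Within 100 bp of the strongest YY1 summit the YY1 consensus was found at 1 gene, PEG3, instead of 0. Of all YY1 summits, 11.6% had it within 100 bp. From the nearest transcript start the PEG3 summit lay at −1361 bp instead of 1549 bp downstream of the gene's 5′ end. The other 23 alternatives for counts stayed within 1.5 times the reported value, and all 10 ranks over all contigs moved by less than 1 percentage point. Best scores in the window were recomputed in 30 alternatives and were the same in 25 of them. With all transcript 5′ ends, the PLAGL1 score rose from 80.9 to 569.8 for YY1 and from 36.8 to 457.3 for NRF1. It rose from 133.3 to 229.1 for SP1 and from 7.63 to 7.86 for ZNF143. In the 1000 bp window the PEG10 score for YY1 fell from 34.9 to 29.3.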

Other observations

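Only through PEG10 did base composition overlap between genes with and without summits at the cluster that holds most transcript starts. In the 500 bp on either side of it, GC content was 62.2% at PEG10, 69.5% at GNAS, 72.3% at KCNQ1OT1 and 72.6% at PLAGL1, all with summits within 1000 bp. It was 62.8% at PEG3, 58.2% at MEST, 53.7% at SNRPN, 58.9% at MEG3, 65.8% at H19 and 62.4% at NDN, which had none there. The ratio of observed to expected CpG ran from 0.707 to 0.959 with summits and from 0.347 to 0.814 without, again overlapping only through PEG10. In both measures GNAS, KCNQ1OT1 and PLAGL1 lay above every gene without summits there. Around the 5′ ends of all gene records the medians were 54.3% and 0.453. How many of all genes reach the members' values is not given here. At MEST the clusters from offsets 0 and 5914 tied with 4 transcripts each, and the first was used. Whether composition bears on the summits was not tested.

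The H19 window held 7 copies of the ZNF143-type consensus, a number reached by 0.408% of genes, and no ZNF143 summit lay closer than 30.6 kb to the gene and its window.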
